A study of Mus musculus with 8 samples.

Results

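The genes described here encode the machinery that starts and runs DNA replication. They are 44 of the 24849 genes listed in each of the 8 expression files, chosen by name as subunits of the origin and fork complexes, with their levels across genotype and day already known. All 44 were found by name and all 44 passed the filter on low values, a mean FPKM (a level scaled for exon length and for the mapped fragments of the library) over 1 in at least 1 condition. Because the list was selected on knowledge of these same samples, the counts of members past a threshold given here are descriptions of the list and are not independent evidence about it.

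Before S phase the origin recognition complex (ORC) sits on DNA, and Cdc6 and Cdt1 help it to load the ring-shaped MCM2-7 helicase, a step called licensing. Geminin (Gmnn) holds Cdt1 back so that each origin is licensed once per cycle. The kinase Cdc7 with its partner Dbf4 then marks the loaded ring, Cdc45 and the GINS proteins join it to form the active helicase, and the fork opens. Polymerase alpha-primase lays down primers, the RFC clamp loader places the PCNA ring, polymerases epsilon and delta extend the strands, RPA covers the exposed single strands, and Fen1 and DNA ligase I finish the Okazaki fragments. Mouse embryonic stem cells (mESCs) divide fast with a short G1 phase, and many replication genes are targets of the E2F transcription factors.

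The study compared wild-type mESCs with Pcgf5-/- mESCs, which lack a subunit of Polycomb repressive complex 1, before and after neural differentiation, to ask what the loss of PCGF5 does to that differentiation. The cells were the MPI-II line, from the 129S2/SvPas strain, and the Pcgf5-/- cells came from single colonies picked after TALEN cutting in the gene's exon 2 and drug selection, so that genotype and clone cannot be told apart. Both genotypes were grown undifferentiated on feeder cells in serum with LIF and 2i (day 0), or kept for 6 days in the neural induction medium N2B27, which holds no serum (day 6). Each of the 4 conditions had 2 biological replicates. FPKM values carry no counts; the low values placed the depth of the libraries within 0.990 to 1.29 times that of the first wild-type sample of day 0, and the absolute depth is unknown from them.

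The targeted gene, Pcgf5, was lower in each knockout sample than in any wild-type sample of its day (1.28 and 1.84 against 5.18 and 3.63 FPKM at day 0, 0.669 and 0.457 against 9.16 and 5.06 at day 6). All 12 mESC marker genes fell over the 6 days in wild type, and 11 of the 12 were higher in Pcgf5-/- than in wild-type cells at day 6, whereas 11 of 12 neural progenitor markers and 5 of 11 tested neuron markers were lower there. Summed over the list, the mESC markers reached 204 to 466 FPKM in wild type and 1232 to 1354 in Pcgf5-/- cells at day 6, from 2468 to 2686 at day 0, and all but 1 marker in 1 wild-type sample of day 6 stayed at or above 1 FPKM. The 12 feeder fibroblast markers summed to 445 to 602 FPKM in 3 of the day 0 samples and to 1136 in the second Pcgf5-/- sample of day 0, and to 251 to 294 in wild type and 148 to 186 in Pcgf5-/- cells at day 6. The part of these cell-type differences in the values given next was not tested.

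The summed level of the replication genes was lower in the wild-type samples of day 6 than in any other sample. Summed over the 44 members, the level was 2867 and 3080 FPKM in wild type and 2963 and 2931 in Pcgf5-/- cells at day 0. After 6 days it was 2335 and 2455 in wild type and 2788 and 2897 in Pcgf5-/- cells. In these sums the genotypes lay apart at day 6 and overlapped at day 0, and the Pcgf5-/- samples of day 6 overlapped the wild-type samples of day 0. As a percentage of the summed FPKM of all genes, the level was 0.768 and 0.799 in wild type and 0.733 and 0.736 in Pcgf5-/- cells at day 0. At day 6 that percentage was 0.643 and 0.663 against 0.722 and 0.704. On that scale the genotypes lay apart at both days, with Pcgf5-/- lower at day 0 and higher at day 6. The Pcgf5-/- samples of day 6 then lay below the wild-type samples of day 0. These are bulk samples, and FPKM is scaled to the library. Fewer cycling cells, less of this RNA per cell and the scaling itself cannot be told apart.

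**Figure D1:**
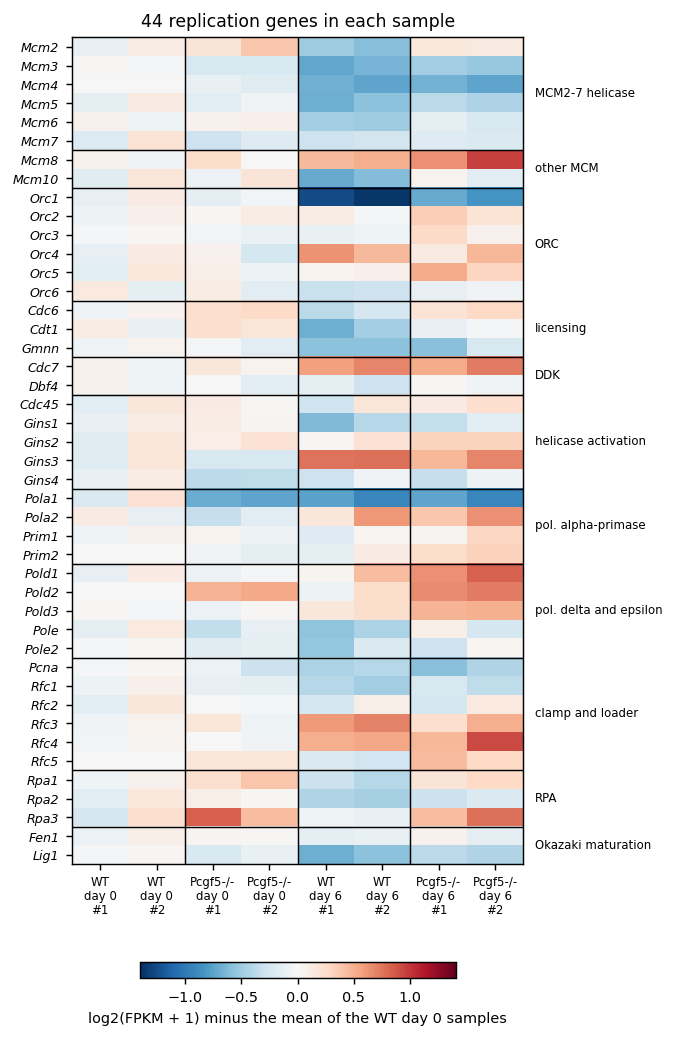
Level of each of the 44 members (rows, grouped by role) in each of the 8 samples (columns), as log2(FPKM + 1) minus the mean of the wild-type day 0 samples; blue is lower and red is higher. Most of the MCM2-7 rows and Orc1 are bluest in wild type at day 6, while Mcm8, Cdc7, Gins3, Rfc3 and Rfc4 are red there.

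Differences were tested with limma over all 13214 genes that passed the filter, with Benjamini-Hochberg adjustment over those genes and 0.05 as the threshold. Fold changes are differences of log2(FPKM + 1). At day 0 no member was called between the genotypes in either direction by limma, where 0.288% of all tested genes were called higher and 0.0454% lower in Pcgf5-/- cells. There 3 members were higher and 2 lower at an unadjusted p under 0.05, beside 1863 and 431 of all 13214 tested genes. The median log2 difference of the members was -0.03, beside 0.11 for all tested genes. Both Pcgf5-/- samples of day 0 lay above both wild-type samples for 7 members and below them for 12. Of all 13214 tested genes, 4568 had the first order and 1763 the second. At day 6, 8 members were higher in Pcgf5-/- cells (18.2% of the members) and none was lower, with 9.57% of all tested genes called higher and 7.05% lower. At an unadjusted p under 0.05, 14 members were higher and none lower, beside 2419 and 1896 of all tested genes. The median of the members was then 0.23 beside 0.02 for all tested genes, and 38 of 44 were above 0, as were 6869 of all 13214 tested genes. With quantile normalization the median was 0.14 and 34 of 44 were above 0. Both Pcgf5-/- samples lay above both wild-type samples for 29 members (65.9%) and below them for 2 (4.55%), as they did for 33.4% and 28.8% of all tested genes.

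Over the 6 days in wild type, 17 members fell (38.6%) and 5 rose (11.4%), while 16.2% of all tested genes fell and 34.2% rose. In Pcgf5-/- cells, 2 members fell (4.55%) and 7 rose (15.9%), while 10.4% of all tested genes fell and 21.9% rose. The members' median change was -0.22 in wild type and 0.03 in Pcgf5-/- cells, beside 0.22 and 0.13 for all tested genes. The change differed between the genotypes for no member by limma's interaction term, which called 1.34% of all tested genes higher and 1.75% lower. At an unadjusted p under 0.05 the interaction was higher for 8 members and lower for none, beside 1141 and 1923 of all tested genes. Of the members' estimates 41 of 44 were above 0, as were 5492 of all 13214. The members' median was 0.27 beside -0.10 for all tested genes. Leaving out a single library changed these numbers and those of all genes, of which 2146 fell and 4522 rose in wild type and 2898 rose in Pcgf5-/- cells with all samples. In wild type 9 members fell without the second sample of day 0 (1689 of all genes) and 11 without the first of day 6 (1686 of all genes). There 2 members rose without the second sample of day 6 (3313 of all genes), and 3 without the first or without the second sample of day 0 (3633 and 3781 of all genes). In Pcgf5-/- cells 1 member rose without the second sample of day 6 (1694 of all genes) and 2 without the first of day 0 (1526 of all genes). The falls called in wild type whichever sample was left out were those of Cdt1, Lig1, Mcm2, Mcm3, Mcm4, Mcm5, Mcm6, Orc1 and Pola1, and the rises those of Gins3 and Rfc3. Over the days in Pcgf5-/- cells they were the fall of Mcm4 and the rise of Rfc4. The genotype comparison of day 6 shares samples with each comparison of the days, so no agreement between them is read.

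The scaling of the libraries bears on the counts over the days. After quantile normalization, which leaves the median of all genes at 0.00 in wild type, 3 members rose in wild type, with 3181 genes rising and 3020 falling in all against 4522 and 2146 before. When each sample was centred on its median gene off chromosomes 6 and 11, the median of all genes moved to -0.14 in wild type and -0.05 in Pcgf5-/- cells, and 2762 genes rose and 4130 fell in wild type. Then 27 members fell and none rose in wild type by limma. In Pcgf5-/- cells 11 members fell and 3 rose, beside 2109 and 1954 of all 13214 tested genes, and the members' median turned to -0.15.

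**Figure D2:**
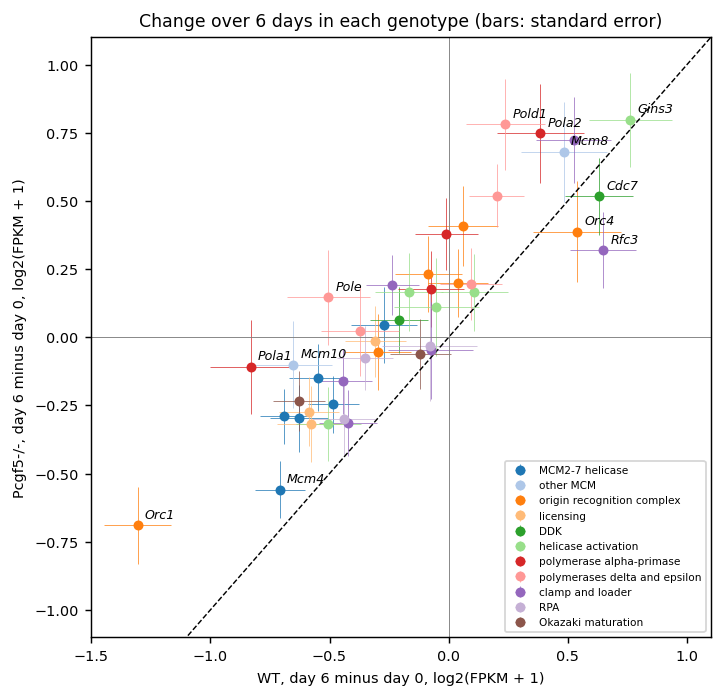
Change of each member from day 0 to day 6 in wild type (horizontal axis) and Pcgf5-/- cells (vertical axis), both as log2(FPKM + 1), coloured by role, with limma's standard errors as bars and the line of equal change dashed. Of the 44 points, 41 lie above the line, Orc1 is farthest to the left, and Rfc3, Orc4 and Cdc7 lie below the line.

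Many of the members' promoters hold an E2F word, which the choice of genes did not use. RefSeq windows of 300 bases on build GRCm38.p6, from 250 bases before to 50 after a start, were at hand for 36 of the 44 members, but not for Gins1, Gins2, Gins4, Gmnn, Mcm4, Pole, Prim2 and Rfc2. The E2F words TTTCCCGC, TTTGGCGC, TTTCGCGC and TTTGCCGC were searched on both strands, where words may overlap each other. At least 1 of them was in 16 of the 36 members (44.4%) and in 704 of all 27025 genes with a window (2.61%). Those genes were taken whether or not they were tested here, and were not matched to the members for level or base content. The word was in 7 of 13 members that fell in wild type (53.8%), in 2 of 5 that rose, and in 7 of 18 that were not called (38.9%). It was in 3 of the 8 members that were higher in Pcgf5-/- cells at day 6. The word TTTGAA, the core of the CHR element found at mitotic genes, was in 19.4% of the members and 20.2% of all genes.

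The windows shown are those of Orc1, which fell most in wild type, of the helicase subunits Mcm3 and Mcm6, which also fell, of Gins3, which rose most, and of Rfc5, which has no E2F word and was higher in Pcgf5-/- cells at day 6. Each runs 5′ to 3′ along the gene's own strand, and capitals mark the E2F words or their reverse complements. On GRCm38.p6 they are chr4:108579204-108579503 (plus strand), chr1:20820263-20820562 (minus strand), chr1:128359656-128359955 (minus strand), chr8:95633309-95633608 (plus strand) and chr5:117388974-117389273 (minus strand).
Orc1: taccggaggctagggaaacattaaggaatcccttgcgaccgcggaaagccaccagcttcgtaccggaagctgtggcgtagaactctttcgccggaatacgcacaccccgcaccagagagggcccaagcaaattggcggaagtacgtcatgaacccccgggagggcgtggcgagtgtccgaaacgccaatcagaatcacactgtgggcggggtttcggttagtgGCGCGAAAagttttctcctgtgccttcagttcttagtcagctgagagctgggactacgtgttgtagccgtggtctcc
Mcm3: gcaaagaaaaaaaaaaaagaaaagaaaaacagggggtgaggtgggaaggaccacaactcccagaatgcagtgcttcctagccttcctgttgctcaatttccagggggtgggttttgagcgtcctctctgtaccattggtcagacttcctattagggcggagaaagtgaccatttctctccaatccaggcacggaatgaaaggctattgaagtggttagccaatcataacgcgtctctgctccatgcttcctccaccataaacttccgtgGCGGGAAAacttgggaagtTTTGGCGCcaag
Mcm6: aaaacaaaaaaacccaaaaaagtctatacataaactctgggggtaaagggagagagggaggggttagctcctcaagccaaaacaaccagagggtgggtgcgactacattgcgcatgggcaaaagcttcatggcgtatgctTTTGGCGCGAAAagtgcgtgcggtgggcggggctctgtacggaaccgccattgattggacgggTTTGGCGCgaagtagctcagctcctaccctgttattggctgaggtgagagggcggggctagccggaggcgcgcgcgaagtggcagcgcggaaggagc
Gins3: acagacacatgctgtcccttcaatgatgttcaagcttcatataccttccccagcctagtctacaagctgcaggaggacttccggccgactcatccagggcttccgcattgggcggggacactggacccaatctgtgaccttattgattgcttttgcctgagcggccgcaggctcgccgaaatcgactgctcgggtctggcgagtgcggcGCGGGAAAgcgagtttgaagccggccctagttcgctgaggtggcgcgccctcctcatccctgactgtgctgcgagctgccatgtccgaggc
Rfc5: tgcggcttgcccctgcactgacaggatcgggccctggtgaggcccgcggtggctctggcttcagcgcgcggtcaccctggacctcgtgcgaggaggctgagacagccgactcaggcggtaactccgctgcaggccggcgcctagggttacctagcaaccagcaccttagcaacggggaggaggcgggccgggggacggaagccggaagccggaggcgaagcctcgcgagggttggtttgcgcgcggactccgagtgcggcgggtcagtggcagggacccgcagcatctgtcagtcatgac
The word begins 27 bases before the start in Orc1 and 41 bases before it in Gins3. In Mcm3 both words lie after the start, and in Mcm6 a pair of overlapping words and a single one lie before it. Words were thus present in genes that fell and in Gins3, which rose. The windows of Mcm2, Mcm10, Pcna, Rfc1, Rpa1 and Rpa2, which also fell in wild type and are not shown, held no E2F word. A match is a description of the letters, not of a bound site.

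The MCM2-7 helicase was among the most abundant of the complexes, and its 6 subunits had 127 to 189 FPKM on average in wild type at day 0. Summed over the subunits the level was 938 and 1019 FPKM in wild type and 912 and 958 in Pcgf5-/- cells at day 0, then 666 and 674 against 812 and 785 at day 6. The sums of the genotypes overlapped at day 0 and lay apart at day 6. They were not divided by the summed FPKM of all genes, which differed between the samples. In wild type 5 of the 6 subunits fell, and Mcm7 did not pass the test (165 and 214 FPKM at day 0 and 154 and 157 at day 6). In Pcgf5-/- cells only Mcm4 passed the test over the days.

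Mcm2 started at 129.9 and 149.7 FPKM in wild type and reached 98.2 and 92.04 by day 6, while Pcgf5-/- samples went from 158 and 182 to 154 and 152. Mcm2 (chromosome 6, 88833468 to 88848774 on mm9) is the subunit whose tail also carries parental histones. It fell to 0.6803 times its day 0 level in wild type (log2 difference -0.55, standard error 0.12, limma adjusted p = 0.00661), and at day 6 was 1.61-fold higher in Pcgf5-/- cells (log2 difference 0.68, standard error 0.12, limma adjusted p = 0.0116). Mcm3 at day 0 stood at 190.1 and 185 FPKM (wild type) and 160.0 and 162 (Pcgf5-/-), and at day 6 it stood at 113 and 119 (wild type) and 133 and 129.7 (Pcgf5-/-). Mcm3 fell in wild type (log2 difference -0.69, standard error 0.10, limma adjusted p = 0.000829). Its Pcgf5-/- samples lay below the wild-type samples at day 0 and above them at day 6, without passing the test at either day. For Mcm4 the level was 127 and 126 FPKM in wild type on day 0, 78.8 and 75.4 in wild type on day 6, 118 and 112 in Pcgf5-/- on day 0 and 80.02 and 75.4 in Pcgf5-/- on day 6. Mcm4 had the lowest level of the subunits in each of the 4 conditions and fell in both genotypes, to 0.609 times its starting level in wild type (log2 difference -0.71, standard error 0.10, limma adjusted p = 0.000851) and 0.676 times in Pcgf5-/- cells (log2 difference -0.56, standard error 0.10, limma adjusted p = 0.00563). The interaction of Mcm4 was 0.15 with a standard error of 0.15.

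Mcm5 in wild-type samples measured 164 and 195 FPKM at day 0 and 111 and 120.0 at day 6, and in the knockout 159.5 and 172, then 137 and 132. Mcm6 started at 163 and 149.9 FPKM in wild type and reached 112 and 111 by day 6, while Pcgf5-/- samples went from 163 and 165 to 142 and 134. Both fell in wild type, Mcm5 to 0.643 and Mcm6 to 0.713 times the level of day 0, and for both the Pcgf5-/- samples of day 6 lay between the wild-type samples of day 6 and those of day 0. The genotype difference of day 6 was 0.30 for Mcm6 (standard error 0.11, limma adjusted p = 0.084) and 0.22 for Mcm5 (standard error 0.12, limma adjusted p = 0.251), neither past the threshold. In wild type the highest subunit was 1.49 times the lowest at day 0 and 2.01 times at day 6, in FPKM, which is scaled per length.

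**Figure D3:**
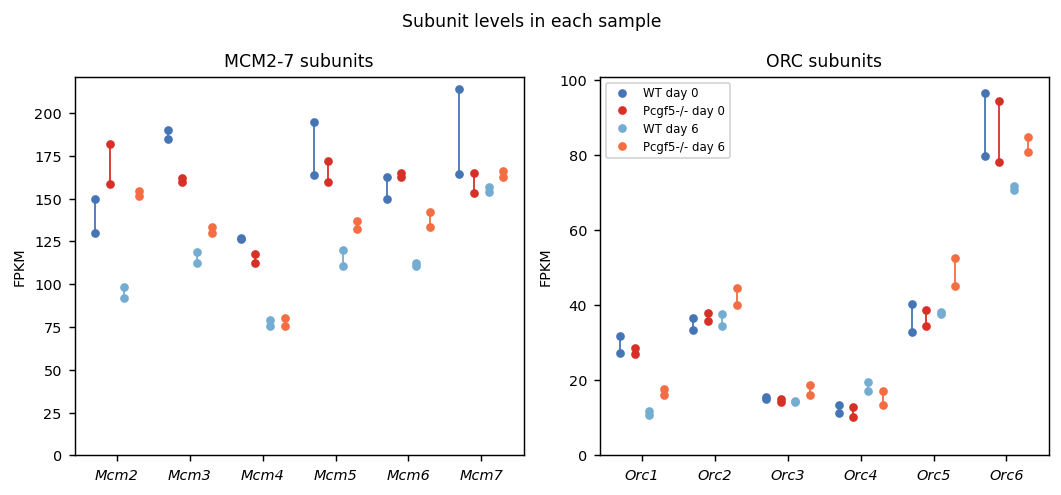
FPKM of the MCM2-7 subunits (left) and the ORC subunits (right) in each sample; a point is a sample and a line joins the 2 samples of a condition, in the order wild type and Pcgf5-/- at day 0, wild type and Pcgf5-/- at day 6. For Mcm2, Mcm3, Mcm5 and Mcm6 the wild-type samples of day 6 are the lowest, and Orc1 is the ORC subunit with the largest drop.

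Outside the ring, Mcm10 helps the helicase to become active and Mcm8 works in break repair. Mcm10 at day 0 stood at 42.7 and 54.6 FPKM (wild type) and 45.6 and 54.7 (Pcgf5-/-), and at day 6 it stood at 29.3 and 31.5 (wild type) and 49.9 and 43.4 (Pcgf5-/-). Mcm10 (chromosome 2, 4911770 to 4933837 on mm9) fell in wild type (log2 difference -0.65, standard error 0.16, limma adjusted p = 0.0101), while in Pcgf5-/- cells the samples of both days overlapped, and at day 6 it was 1.54-fold higher in Pcgf5-/- cells (log2 difference 0.60, standard error 0.16, limma adjusted p = 0.0387). For Mcm8 the level was 6.09 and 5.54 FPKM in wild type on day 0, 8.33 and 8.71 in wild type on day 6, 7.05 and 5.77 in Pcgf5-/- on day 0 and 9.58 and 12.2 in Pcgf5-/- on day 6. Mcm8 was among the lowest members and went the other way: it rose in Pcgf5-/- cells (log2 difference 0.68, standard error 0.18, limma adjusted p = 0.0236) and was 0.48 on the log2 scale over the days in wild type, not past the threshold (limma adjusted p = 0.0548).

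Within ORC the subunits differed. Orc1 in wild-type samples measured 27.2 and 31.8 FPKM at day 0 and 11.8 and 10.9 at day 6, and in the knockout 26.9 and 28.7, then 17.7 and 16.02. Orc1 (chromosome 4, 108252059 to 108287436 on mm9), the subunit whose level is known to vary through the cell cycle, had the largest fall of all 44 members in wild type, to 0.384 times its day 0 level (log2 difference -1.30, standard error 0.14, limma adjusted p = 0.000188). It fell in Pcgf5-/- cells too, to 0.606 times (log2 difference -0.69, standard error 0.14, limma adjusted p = 0.00806), and was 1.49-fold higher in Pcgf5-/- than in wild-type cells at day 6 (log2 difference 0.53, standard error 0.14, limma adjusted p = 0.0366). The genotypes overlapped at day 0 and lay apart at day 6, and the interaction was 0.61 (standard error 0.20, limma adjusted p = 0.12). The genotype call of Orc1 at day 6 was lost when any single Pcgf5-/- sample or any wild-type sample of day 6 was left out.

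Orc4 started at 11.3 and 13.3 FPKM in wild type and reached 19.5 and 17.1 by day 6, while Pcgf5-/- samples went from 12.9 and 10.2 to 13.5 and 17.2. Orc4 was the only ORC subunit that rose in wild type (log2 difference 0.54, standard error 0.19, limma adjusted p = 0.0401), from the lowest level of the 6, and that call was lost without any single wild-type sample. The lowest ORC subunit was Orc4 in 3 conditions and Orc1 in wild type at day 6. Orc6 was the highest in all 4 conditions, with condition means of 71.3 to 88.2 FPKM. Orc2, Orc3, Orc5 and Orc6 did not pass the test in any comparison, and their log2 differences between genotypes at day 6 were 0.23, 0.25, 0.35 and 0.21. For each of these 4 the Pcgf5-/- samples of day 6 lay above the wild-type samples, as they did for 33.4% of all tested genes.

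Of the licensing factors, Cdt1 and geminin fell in wild type and Cdc6 and Cdt1 were higher in Pcgf5-/- cells at day 6. Cdc6 at day 0 stood at 20.2 and 22.01 FPKM (wild type) and 24.9 and 25.6 (Pcgf5-/-), and at day 6 it stood at 15.97 and 17.8 (wild type) and 24.2 and 25.8 (Pcgf5-/-). Cdc6 (chromosome 11, 98769203 to 98785256 on mm9) was higher in both Pcgf5-/- samples at both days, and at day 6 was 1.48-fold higher (log2 difference 0.54, standard error 0.13, limma adjusted p = 0.0275). For Cdt1 the level was 107 and 92.3 FPKM in wild type on day 0, 61.4 and 70.5 in wild type on day 6, 117 and 112 in Pcgf5-/- on day 0 and 91.5 and 97.4 in Pcgf5-/- on day 6. Cdt1 (chromosome 8, 125091915 to 125097030 on mm9) fell in wild type (log2 difference -0.59, standard error 0.13, limma adjusted p = 0.00534) and was 1.43-fold higher in Pcgf5-/- cells at day 6 (log2 difference 0.51, standard error 0.13, limma adjusted p = 0.0294). Geminin, which restrains Cdt1, also fell in wild type: Gmnn in wild-type samples measured 83.05 and 88.4 FPKM at day 0 and 57.03 and 57.02 at day 6, and in the knockout 84.7 and 77.03, then 56.8 and 73.3. Its change there was -0.58 (standard error 0.14, limma adjusted p = 0.00964), and its genotypes overlapped at day 6.

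The kinase pair split. Cdc7 started at 14.3 and 13.1 FPKM in wild type and reached 20.9 and 22.6 by day 6, while Pcgf5-/- samples went from 15.4 and 14.2 to 20.1 and 23.2. Cdc7, the catalytic subunit, rose in wild type (log2 difference 0.63, standard error 0.14, limma adjusted p = 0.0067) and in Pcgf5-/- cells (log2 difference 0.52, standard error 0.14, limma adjusted p = 0.0259). Dbf4, its activator, was at 62.6 to 80.4 FPKM in all 8 samples and passed no test. In each condition the mean of Dbf4 was 3.06 to 5.62 times that of Cdc7, lowest in wild type at day 6.

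Of the proteins that complete the helicase, Gins1 and Gins3 moved in opposite directions. Gins3 at day 0 stood at 6.44 and 8.38 FPKM (wild type) and 6.16 and 6.17 (Pcgf5-/-), and at day 6 it stood at 13.1 and 13.2 (wild type) and 10.5 and 12.4 (Pcgf5-/-). Gins3 rose in both genotypes, 1.78-fold in wild type (log2 difference 0.76, standard error 0.17, limma adjusted p = 0.00711) and 1.86-fold in Pcgf5-/- cells (log2 difference 0.80, standard error 0.17, limma adjusted p = 0.0106), from the lowest level of the 4 GINS subunits. For Gins1 the level was 50.6 and 58.2 FPKM in wild type on day 0, 35.1 and 41.1 in wild type on day 6, 58.4 and 55.9 in Pcgf5-/- on day 0 and 42.8 and 48.6 in Pcgf5-/- on day 6. Gins1 fell in wild type (log2 difference -0.50, standard error 0.14, limma adjusted p = 0.0153). Gins2, Gins4 and Cdc45 passed no test. The exons of Gins2 overlap antisense exons of Gse1 over 67.3% of their bases, and since the sources do not state whether strand was used, its reads could hold some of that gene.

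Polymerase alpha-primase held the largest genotype difference of day 0. Pola1 in wild-type samples measured 24.02 and 32.2 FPKM at day 0 and 16.2 and 14.3 at day 6, and in the knockout 16.8 and 16.2, then 16.3 and 14.3. Pola1, the catalytic polymerase subunit, was in Pcgf5-/- cells at 0.588 times the wild-type level at day 0 (log2 difference -0.72, standard error 0.17, limma adjusted p = 0.0852), which did not pass the threshold although the groups lay apart. It fell in wild type to 0.542 times (log2 difference -0.83, standard error 0.17, limma adjusted p = 0.0044), and all 4 samples of day 6 lay between 14.3 and 16.3 FPKM, beside which the Pcgf5-/- samples of day 0 were hardly higher. Its interaction, 0.72, was the largest among the members (standard error 0.24, limma adjusted p = 0.128). Pola2 started at 34.05 and 29.04 FPKM in wild type and reached 35.2 and 48.5 by day 6, while Pcgf5-/- samples went from 25.02 and 28.2 to 41.3 and 49.7. Pola2, the accessory subunit, rose in Pcgf5-/- cells (log2 difference 0.75, standard error 0.18, limma adjusted p = 0.0165). The primase subunits Prim1 and Prim2 passed no test, with 40.1 to 55.6 and 24.5 to 34.1 FPKM.

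Among the extending polymerases, subunits of delta and epsilon differed. Pold2 at day 0 stood at 65.2 and 65.2 FPKM (wild type) and 91.3 and 94.4 (Pcgf5-/-), and at day 6 it stood at 61.98 and 78.3 (wild type) and 104 and 109 (Pcgf5-/-). Pold2 (chromosome 11, 5772183 to 5778259 on mm9) was 1.42-fold higher in Pcgf5-/- cells at day 0 (log2 difference 0.50, standard error 0.13, limma adjusted p = 0.103) and 1.52-fold at day 6 (log2 difference 0.60, standard error 0.13, limma adjusted p = 0.0204), and only the latter passed the test. For Pold1 the level was 20.9 and 24.5 FPKM in wild type on day 0, 23.3 and 30.99 in wild type on day 6, 21.4 and 22.4 in Pcgf5-/- on day 0 and 35.9 and 40.8 in Pcgf5-/- on day 6. Pold1, the catalytic subunit, rose in Pcgf5-/- cells (log2 difference 0.78, standard error 0.17, limma adjusted p = 0.00987) and Pold3 rose there as well (log2 difference 0.52, standard error 0.12, limma adjusted p = 0.0113), while neither passed in wild type. Pole in wild-type samples measured 18.7 and 22.8 FPKM at day 0 and 13.6 and 14.9 at day 6, and in the knockout 16.1 and 18.99, then 21.9 and 17.2. Pole, the catalytic subunit of the leading-strand polymerase, fell in wild type (log2 difference -0.51, standard error 0.17, limma adjusted p = 0.04) and was 0.15 over the days in Pcgf5-/- cells (limma adjusted p = 0.556). Pole2 passed no test.

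Pcna, the sliding clamp, was the most abundant member in each condition. Pcna started at 276 and 289 FPKM in wild type and reached 207 and 214 by day 6, while Pcgf5-/- samples went from 267 and 229 to 188 and 210.1. It fell in wild type (log2 difference -0.42, standard error 0.12, limma adjusted p = 0.0193), did not pass the test in Pcgf5-/- cells (log2 difference -0.31, standard error 0.12, limma adjusted p = 0.0787), and overlapped between the genotypes at day 6. The call in wild type was lost without any single wild-type sample. The annotation also holds the pseudogenes Pcna-ps1 and Pcna-ps2, with which reads could be shared.

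The 5 clamp loader subunits did not move together. Rfc5 at day 0 stood at 72.5 and 73.1 FPKM (wild type) and 81.7 and 82.3 (Pcgf5-/-), and at day 6 it stood at 63.02 and 60.3 (wild type) and 99.5 and 88.5 (Pcgf5-/-). Rfc5 (chromosome 5, 117829154 to 117839032 on mm9) was 1.52-fold higher in Pcgf5-/- cells at day 6 (log2 difference 0.60, standard error 0.11, limma adjusted p = 0.0123), and its Pcgf5-/- samples also lay above wild type at day 0, by 0.17 on the log2 scale without passing the test. For Rfc3 the level was 51.6 and 54.97 FPKM in wild type on day 0, 81.2 and 87.04 in wild type on day 6, 60.2 and 51.00 in Pcgf5-/- on day 0 and 63.1 and 76.2 in Pcgf5-/- on day 6. Rfc3 rose in wild type (log2 difference 0.65, standard error 0.14, limma adjusted p = 0.00531), and in Pcgf5-/- cells of day 6 both samples were lower than in wild type, one of 2 members with that order, the other being Gins3. Rfc4 in wild-type samples measured 35.1 and 36.97 FPKM at day 0 and 51.5 and 52.9 at day 6, and in the knockout 35.8 and 34.7, then 50.1 and 69.2. Rfc4 rose in both genotypes (log2 change 0.52 in wild type, limma adjusted p = 0.0233, and 0.72 in Pcgf5-/- cells, limma adjusted p = 0.0104). Rfc1, the large subunit, fell in wild type (log2 difference -0.44, standard error 0.12, limma adjusted p = 0.0148), and Rfc2 passed no test.

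All 3 subunits of RPA had positive genotype differences at both days. Of all 13214 tested genes, 8702 had a positive difference at day 0 and 6869 at day 6. The difference of Rpa2 at day 0 was 0.05, with overlapping samples, beside a median of 0.11 for all tested genes. Rpa1 lies on chromosome 11 and Rpa3 on chromosome 6, whose genes were higher in Pcgf5-/- cells as a whole, as given below. Rpa1 started at 94.2 and 103 FPKM in wild type and reached 79.6 and 74.3 by day 6, while Pcgf5-/- samples went from 115 and 129 to 112 and 119.6. Rpa1 (chromosome 11, 75113761 to 75161885 on mm9), the large subunit, was 1.505-fold higher in Pcgf5-/- cells at day 6 (log2 difference 0.58, standard error 0.12, limma adjusted p = 0.0157). Rpa3 at day 0 stood at 42.02 and 58.2 FPKM (wild type) and 88.9 and 67.00 (Pcgf5-/-), and at day 6 it stood at 47.5 and 45.9 (wild type) and 67.02 and 84.8 (Pcgf5-/-). Rpa3, the smallest subunit, had genotype differences of 0.63 at day 0 and 0.68 at day 6, the latter just outside the threshold (limma adjusted p = 0.0536), and its replicates were the farthest apart of all members at day 0. Rpa2, on chromosome 4, fell in wild type (log2 difference -0.44, standard error 0.13, limma adjusted p = 0.0228) and differed by 0.19 between genotypes at day 6, not past the threshold.

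At the end of the fork's work, the ligase and the flap nuclease differed. For Lig1 the level was 121 and 125 FPKM in wild type on day 0, 76.2 and 82.6 in wild type on day 6, 106 and 115 in Pcgf5-/- on day 0 and 95.6 and 91.7 in Pcgf5-/- on day 6. Lig1 fell in wild type (log2 difference -0.63, standard error 0.11, limma adjusted p = 0.00195). Fen1 stayed within 27.2 to 31.7 FPKM in all 8 samples and passed no test, but 84.2% of its exon bases lie antisense to other genes, so that its reads could hold some of theirs.

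**Figure D4:**
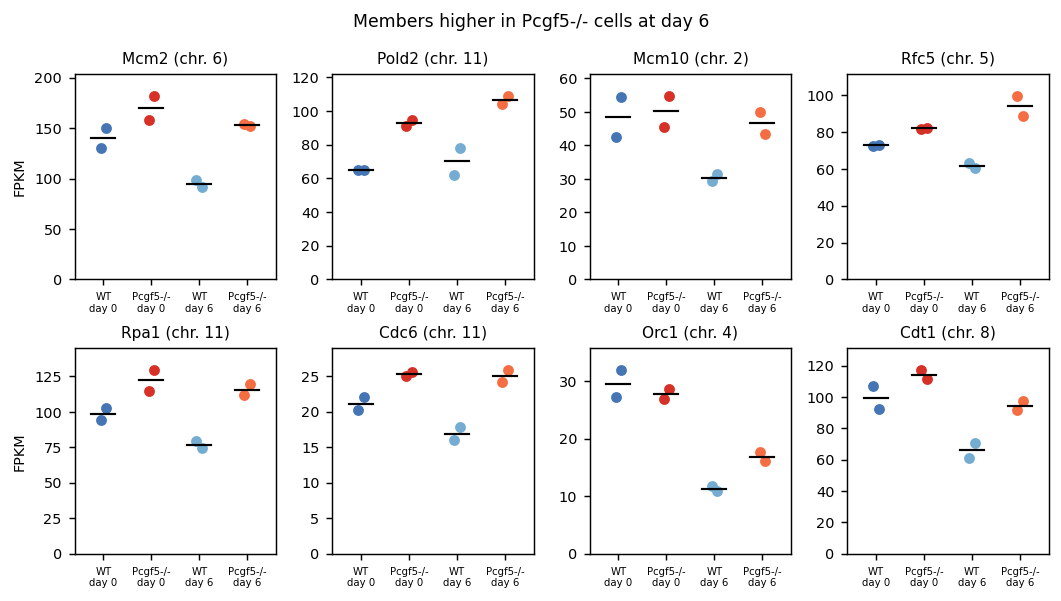
FPKM of the 8 members called higher in Pcgf5-/- cells at day 6, in each sample (points, 2 per condition) with the mean of the condition (bar); each axis starts at 0. At day 6 both Pcgf5-/- samples lie above both wild-type samples in each of the 8 panels.

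Members just inside the threshold at day 6 were Mcm10 (limma adjusted p = 0.0387) and Orc1 (limma adjusted p = 0.0366), and just outside were Rpa3 (limma adjusted p = 0.0536) and Pold1 (limma adjusted p = 0.0785). The number of 8 rests on single libraries: it was 0 without the first Pcgf5-/- sample of day 6, 2 without the second, 3 without the first wild-type sample of day 6 and 1 without the second, and 175, 561, 721 and 221 genes were called higher in all under the same omissions. None of the 8 was called in every one of them.

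Genes of chromosomes 6 and 11 were higher in Pcgf5-/- cells as a whole, with medians of 0.41 and 0.48 at day 0 and 0.37 and 0.38 at day 6, while the medians of the other chromosomes spanned 0.04 to 0.12 at day 0 and -0.06 to 0.03 at day 6. Of the 44 members, 5 lie there, Mcm2 and Rpa3 on chromosome 6 and Pold2, Rpa1 and Cdc6 on chromosome 11, and 4 of these are among the 8 called at day 6. Their genotype differences were already above 0 at day 0, with 0.28 for Mcm2, 0.63 for Rpa3, 0.50 for Pold2, 0.31 for Rpa1 and 0.25 for Cdc6. The other 39 members included 4 that were higher at day 6 (10.3%), Rfc5, Cdt1, Orc1 and Mcm10, beside 7.21% of all tested genes off these chromosomes. The median of the 39 was -0.05 at day 0 and 0.21 at day 6, and their medians over the days were -0.21 (wild type) and 0.06 (Pcgf5-/-). The part of the chromosomes in the genotype differences of the 5 members was not tested.

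**Figure D5:**
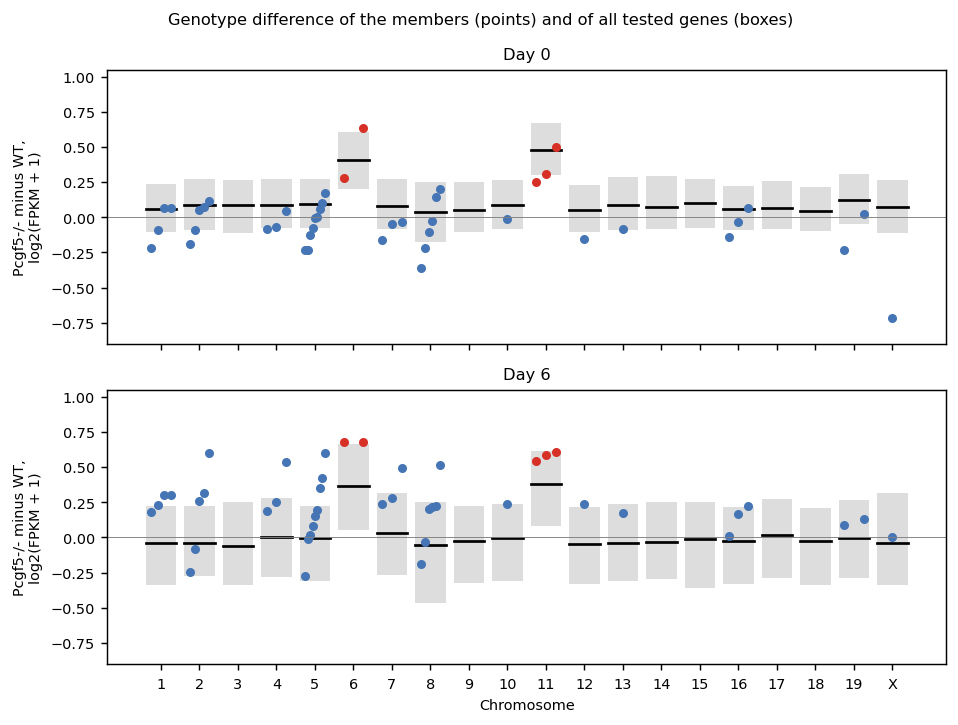
Genotype difference, Pcgf5-/- minus wild type on the log2(FPKM + 1) scale, at day 0 (top) and day 6 (bottom) by chromosome; points are the members, red on chromosomes 6 and 11 and blue elsewhere, grey boxes span the middle quartiles of all tested genes of the chromosome and black lines are their medians. All 5 red points are above 0 at both days, and the blue points are mostly above their boxes' medians at day 6.

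Groups of genes that work beside the fork were counted in the same way. Of all tested genes 9.57% were higher and 7.05% lower in Pcgf5-/- cells at day 6. Over the days 34.2% rose and 16.2% fell in wild type, and 21.9% rose and 10.4% fell in Pcgf5-/- cells. Of 26 other replication factors, none was higher and 1, the repair polymerase gene Polb, was lower in Pcgf5-/- cells at day 6, while 6 rose and 5 fell over the days in wild type and 3 rose and 2 fell in Pcgf5-/- cells. Of 15 genes of nucleotide supply, only Shmt1 on chromosome 11 was higher at day 6 (log2 difference 0.77, standard error 0.15, limma adjusted p = 0.0149). Of 12 chromatin assembly genes 11 were tested, and 2 were higher at day 6, Hells, a remodeller, with 69.8 and 58.4 FPKM in wild type and 116 and 89.6 in Pcgf5-/- cells, and Hat1, which acetylates new histones, with 111 and 96.7 against 156 and 175 FPKM. None of 22 mitosis genes was called between the genotypes at day 6 by limma. At an unadjusted p under 0.05, 4 were higher and none lower, beside 2419 and 1896 of all tested genes. Over the days 1 mitosis gene rose and 2 fell in wild type, where 34.2% and 16.2% of all tested genes did. In Pcgf5-/- cells 5 rose and none fell by limma, where 21.9% and 10.4% of all tested genes did. At an unadjusted p under 0.05, 9 mitosis genes rose there and none fell, beside 3921 and 1930 of all tested genes. Mki67, the proliferation marker in that list, measured 55.7 and 67.3 FPKM in wild type at day 6 beside 62.7 and 51.00 in the knockout, and the groups overlapped. Over the days it rose in Pcgf5-/- cells (log2 difference 0.67, standard error 0.16, limma adjusted p = 0.0157) and did not pass the test in wild type (log2 difference 0.27, standard error 0.16, limma adjusted p = 0.198).

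Of 19 genes of the E2F, RB and MuvB group, which govern the transcription of many cell cycle genes, 1 was higher (5.26%) and 2 were lower (10.5%) in Pcgf5-/- cells at day 6. Of all tested genes 9.57% were higher and 7.05% lower. Mybl2 in wild-type samples measured 158 and 152 FPKM at day 0 and 30.99 and 30.6 at day 6, and in the knockout 134 and 151, then 49.3 and 53.7. Mybl2, the MuvB-bound activator, fell steeply in both genotypes and less so in Pcgf5-/- cells (interaction 0.85, standard error 0.16, limma adjusted p = 0.0387). Tfdp1 started at 108 and 83.5 FPKM in wild type and reached 110.0 and 126 by day 6, while Pcgf5-/- samples went from 66.9 and 67.6 to 65.4 and 64.3. Tfdp1, the dimer partner of E2F proteins, was lower in Pcgf5-/- cells at day 6 (log2 difference -0.85, standard error 0.14, limma adjusted p = 0.00991), as was E2f5 (log2 difference -0.56, standard error 0.15, limma adjusted p = 0.0388). E2f1 was at 13.1 to 18.5 FPKM in all 8 samples and passed no test.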

How the data were processed

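RNA-seq of 8 samples was analysed, 2 for each genotype (wild type, Pcgf5-/-) and day (0, 6). The authors aligned trimmed reads to mouse mm9 and computed FPKM, which the deposited files list for 24849 genes; the submitters' notes name TopHat2 2.0.4 and Cufflinks 2.1.1, and the annotation and use of strand are not given in the sources used here. FPKM is scaled for length and library, so depth is unknown and 2 samples a condition limit the precision. The interval columns were not used, since FPKM lay outside its own interval for 1074 to 1347 genes per file. Groups came from the labels.

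The 13214 genes that exceeded 1 FPKM on average in any condition were fitted as log2(FPKM + 1) in R 4.3.3 by limma 3.58.1, using condition means over all 8 samples, a variance trend and no replicate block; p-values were two-sided and adjusted by Benjamini-Hochberg over all tested genes, with a threshold of 0.05. The fit was also run on simulated data with known changes, and the outcome is not given here. The study's methods give Student's test as their statistic in general but do not tie a test to the RNA-seq comparisons. Any of the 44 members could be named, with values for those past the threshold between genotypes and the 5 largest changes of each contrast, and from each other list up to the 3 largest differences past the threshold between genotypes at day 6, with Pcgf5 and Mki67 as context; E2f1 and E2f6 were named after their values were seen. The members and all lists were chosen with earlier results of these data known. Coordinates of genes are mm9 as in the files, 1-based; promoters are from RefSeq on GRCm38.p6, matched by symbol. Alternatives were a pseudocount of 0.1, an FPKM minimum of 5 or none, 2 other scalings, replicate blocks, no variance trend, only the compared groups, no genes of chromosomes 6 and 11, and each sample left out.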

Additional observations from a re-analysis of the deposited data

Results flagged for a closer look

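For 5 members both Pcgf5-/- samples were under the wild-type samples of day 0 and over those of day 6. How many of all tested genes had both orders was not counted, so the number 5 is a description only. Taken singly, the order of day 0 held for 1763 and that of day 6 for 4408 of all 13214 tested genes. The genotype effect at day 6 minus that at day 0 was 0.40 on the log2 scale for Mcm3 (limma adjusted p = 0.15), 0.32 for Orc3 (limma adjusted p = 0.367), 0.39 for Prim2 (limma adjusted p = 0.259), 0.28 for Rfc1 (limma adjusted p = 0.349) and 0.39 for Lig1 (limma adjusted p = 0.178), and none of these passed the threshold. In the E2F, RB and MuvB group this difference passed the threshold for Mybl2, at 0.85 (limma adjusted p = 0.0387), and for E2f6, at -0.91 (limma adjusted p = 0.0426). The call of E2f6 was lost when either Pcgf5-/- sample of day 6 or the second wild-type sample of day 0 was left out. Whether that of Mybl2 held under these omissions is not given here. E2f6 went from 7.19 and 7.18 FPKM to 34.6 and 33.7 in wild type, and from 12.3 and 12.2 to 30.4 and 28.4 in Pcgf5-/- cells.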

How the results depend on the processing

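The 50 values of single members that were called or among the 5 largest of a contrast were recomputed under each alternative: 773 recomputed values kept their direction and their side of the threshold, 108 lost the call, 4 gained one and none of these changed sign. Among all 44 members signs did change: 19 were above 0 between genotypes at day 0, against 9 with quantile normalization and 10 with centring off chromosomes 6 and 11. Centring also took the number above 0 over the days from 13 to 7 in wild type and from 23 to 15 in Pcgf5-/- cells. No alternative gave a member call in the interaction or between the genotypes at day 0. The members higher at day 6 numbered 4 in a fit without chromosomes 6 and 11, which by construction holds only 39 of them. There 780 of 11485 tested genes were higher. In a fit of the compared groups only, which tested all 44, they numbered 5, and 913 of 13214 tested genes were higher. The number also changed when a sample was left out. Off chromosomes 6 and 11 the members higher at day 6 numbered 2 without the variance trend, where 1172 genes were higher over all chromosomes. They numbered 2 in the fit of the compared groups, and this number too changed with a sample left out. With a sample left out, 2 to 5 members rose and 9 to 17 fell in wild type, and 1 to 7 rose in Pcgf5-/- cells. Quantile normalization gave 3 rises in wild type and medians of -0.13 at day 0 and 0.14 at day 6 between genotypes. Centring off chromosomes 6 and 11 gave medians of -0.12 and 0.31 between genotypes, -0.58 over the days in wild type, -0.15 in Pcgf5-/- cells and 0.45 for the interaction, with 0 rises and 27 falls in wild type by limma and 3 rises and 11 falls in Pcgf5-/- cells; at day 6 between genotypes it called 1747 genes higher and 755 lower in all, against 1265 and 932. With a sample left out the day 6 median was 0.18 to 0.29.

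The replicate numbers were not taken to pair the samples: the differences between replicates 2 and 1 correlated at 0.102 between the genotypes of day 0 and 0.387 between those of day 6, and at -0.0765 to -0.022 across days. A replicate block over all samples kept all 8 members higher at day 6; a block for each day kept all 8 too and left 3 rises in wild type. For the other contrasts the cause of the changes was not tested, and lone samples were assumed to vary like the others. With 2 samples a condition the intervals are wide.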
